A study of Rattus norvegicus with 12 samples.

Results

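The direct comparison of GR24 with resveratrol in rat L6 myotubes was taken from the 6 arrays whose labels give 60 µM of one of these compounds, 3 for each, out of 12 arrays in the series. L6 is a skeletal muscle cell line of the rat, in which single myoblasts leave the cell cycle and fuse into myotubes with many nuclei. The labels give 6 days of differentiation before the treatment, while the methods of the study give another number of days. Myotubes then received 60 µM GR24 or 60 µM resveratrol for 24 h, and the control myotubes received the solvent DMSO. Each group had 3 replicates, from separate experiments by the methods of the study, so the arrays show the spread between cultures of 1 line and not between animals. The remaining 3 arrays held a further plant compound and entered the fit without being described. All probes that passed a filter on dim signals were compared, and no value of the comparison was used to choose the arrays.

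GR24 is a synthetic analogue of the strigolactones, hormones that plants make in their roots, and it carries a tricyclic lactone linked through an enol ether to a butenolide ring. Resveratrol is a polyphenol of grapes and other plants, a stilbene with hydroxyl groups on its aromatic rings. Both have been used in muscle cells as compounds that act on metabolism and on defence against oxidants. A central part of that defence is the transcription factor Nrf2, which Keap1 holds in the cytoplasm and marks for degradation in resting cells. Electrophiles and oxidants modify Keap1, and Nrf2 then moves to the nucleus and switches on genes for glutathione synthesis, quinone reduction, heme breakdown and NADPH supply through the antioxidant response element in their promoters. Muscle differentiation runs on other factors. The myogenic factors MyoD and myogenin, with partners of the Mef2 family, turn on the genes of the sarcomere and of the calcium release machinery while cell division stops.

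The values below are log2 signals of 1-colour arrays, given relative to the 75th percentile of the same array, so a negative value lies under that percentile and a step of 1 is a 2-fold change. A difference is GR24 minus resveratrol unless another pair is named. A gene is called higher or lower when its adjusted p, from limma with Benjamini-Hochberg adjustment over all tested probes, was under 0.05. Each difference rests on 3 arrays a group, and that number limits the precision. Intervals are 95% intervals of the fit, not adjusted for the number of probes.

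The cell type was checked against markers of myotubes. The probes of *Myog*, *Myh3*, *Acta1*, *Ckm*, *Tnnt3*, *Des* and *Cav3* were well above background on all 12 arrays by the mark of the scanner software, including those with GR24, and *Mymk* was not named on the array. Of 14 markers of 4 other cell types, namely fat, endothelial, macrophage and epithelial cells, 13 were named on the array and 5 were tested. The 5 tested were *Cfd*, *Cdh5*, *Cd68*, *Cd14* and *Krt8*, and each was well above background on all 12 arrays. *Adipoq*, *Lep*, *Ptprc*, *Krt18* and *Epcam* were well above background on no array. The wider list of other cell types in the test held 7 genes, with a median signal of -0.69, -0.49 and -0.71 on the GR24 arrays and -1.72, -1.58 and -1.21 on the resveratrol arrays. Of these, 3 were higher with GR24 and 0 lower (3 and 1 with the replicate block), and the median difference of 0.021 took either sign over the processing alternatives. The 3 that rose were *Cd68*, a lysosomal protein abundant in macrophages (2.52), *Cd14*, a receptor for bacterial lipopolysaccharide (1.70), and *Krt8*, a keratin of simple epithelia (0.66). The macrophage markers *Ptprc* and *Adgre1* were not tested, because they were well above background on 0 and 3 of the 12 arrays. The part that other cell types could have in the results was not tested. RNA was taken from whole cultures, so fewer myotubes and less of an mRNA in each myotube cannot be told apart.

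The compounds differed over a large part of the transcripts measured. Of 24279 probes tested, 6662 (27.4%) were higher and 5811 (23.9%) were lower with GR24 than with resveratrol, and 6571 and 5711 of them had no overlap between the 3 arrays of each compound. With the 75th percentile taken over spots instead of over probes, the counts were 8707 higher and 4875 lower, so that the share of calls that were higher was 64.1% in place of 53.4%. This scaling moved the median difference of all probes by 0.11, and both splits were known when the scaling over probes was settled on. Replicates 1 and 2 of each group shared a slide, and replicate 3 lay on another. With the slide as a block, 7962 probes were higher and 6921 lower, and on slide 1 alone 6867 and 6353. Slide 2 held 1 array of each compound and so allowed no test. Of the calls made on slide 1 alone, 6790 of 6864 higher probes with a value on slide 2 and 5994 of 6353 lower probes had the same sign there.

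Large changes were more often decreases. Among the probes past the threshold, 1011 were at least 2-fold higher and 1810 at least 2-fold lower with GR24, and at least 4-fold changes numbered 120 and 394. With the percentile over spots the 2-fold counts were 1338 and 1515, and with the normexp background correction, which raises dim signals by an offset, 399 and 1000. Differences under 2-fold made up 77.4% of the calls. The middle of the distribution was close to 0, with a median difference of 0.0244 over the probes. Probes without a name in the gene table made up 2300 of the increases and 2422 of the decreases. By gene, with 1 probe for each of 10741 named genes, 3398 (31.6%) were higher and 2699 (25.1%) lower, with a median difference of 0.053. These shares are the background against which the gene lists below are set.

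**Figure D1:**
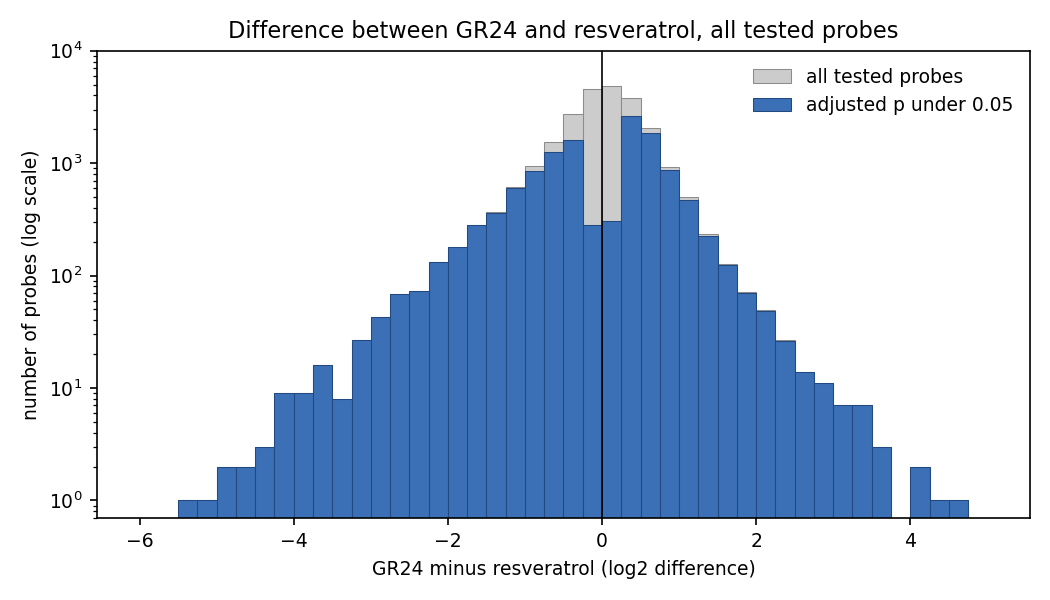
Number of probes (log axis) by GR24 minus resveratrol difference (log2, steps of 0.25) for all 24279 tested probes (grey) and for those with an adjusted p under 0.05 (blue, 6662 higher and 5811 lower). The tail of decreases reaches further from 0 than the tail of increases.

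Muscle genes led the decreases. *Myog*, which encodes the differentiation factor myogenin, read -0.38, -1.05 and -0.50 on the GR24 arrays, 4.72, 4.67 and 4.65 on the resveratrol arrays and 5.24, 5.25 and 5.08 on the control arrays. All GR24 arrays lay far under all resveratrol arrays, and the difference of -5.32 (SE 0.15, adjusted p = 2.23e-09) was the largest decrease among the named genes above background on all 6 arrays. *Stac3*, a protein that couples the membrane calcium channel of muscle to calcium release, followed with -3.99, -3.93 and -4.25 on the GR24 arrays, 0.41, 0.53 and 0.28 on the resveratrol arrays and 1.14, 1.24 and 1.09 on the control arrays. Its difference was -4.47 (SE 0.11, adjusted p = 1.07e-09), with no overlap between the compounds. For *Acta1*, the skeletal muscle actin of the thin filament, the GR24 arrays gave 1.37, 1.28 and 1.37, the resveratrol arrays 4.99, 5.06 and 4.93 and the control arrays 5.29, 5.30 and 5.07. Its decrease was 12.6-fold (difference -3.66, SE 0.078, adjusted p = 6.86e-10). *Acta2*, the smooth muscle actin that early muscle cells also make, differed by -4.17 (SE 0.14). *Mybph*, a myosin-binding protein of the thick filament, differed by -3.86 (SE 0.10), and *Hspb3*, a small heat shock protein of muscle, by -4.09 (SE 0.097). *Itgb1bp2*, also called melusin, is a muscle protein that binds integrin, and it differed by -3.67 (SE 0.14).

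The other large decreases were of mixed function. *Marcks*, a substrate of protein kinase C that binds actin at the membrane, read -1.34, -1.47 and -1.48 with GR24, 2.92, 2.79 and 2.76 with resveratrol and 2.90, 3.11 and 2.98 in the control. The difference was -4.25 (SE 0.087, adjusted p = 6.10e-10), and the second probe of the gene gave -4.28. In the arrays with resveratrol the gene stayed near its control level, at -0.18 from the control (adjusted p = 0.216). *Anxa10*, an annexin, differed by -4.04. *Cyp2j4*, a cytochrome P450, differed by -3.69 and was the 1 of these 15 genes with the largest decrease from the control with resveratrol (-1.91, adjusted p = 1.50e-06). *Adamts5*, a protease that cleaves proteoglycans, *Septin4*, a septin of the cytoskeleton, *Stc1*, the secreted glycoprotein stanniocalcin, and *Gask1b* closed the list, at -3.62, -3.57, -3.46 and -3.16. Adjusted p over these 15 decreases lay between 6.10e-10 and 3.16e-08.

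The largest increases joined a lipid enzyme, a secreted peptide precursor and stress genes. *Plcd4*, a phospholipase C, read -1.31, -1.05 and -1.22 on the GR24 arrays, -4.81, -4.74 and -4.79 on the resveratrol arrays and -4.49, -4.65 and -4.65 on the control arrays. It was higher on each GR24 array, by 12-fold (difference 3.59, SE 0.093, adjusted p = 1.83e-09). *Vgf*, the precursor of several secreted peptides, read -0.33, -0.28 and -0.41 with GR24, -3.73, -3.75 and -3.83 with resveratrol and -3.84, -3.89 and -3.94 in the control. The difference was 3.43 (SE 0.11, adjusted p = 5.01e-09), and resveratrol lay 0.12 from the control (adjusted p = 0.522). *Mt2A*, a metallothionein that binds zinc and other metals, read 1.93, 1.91 and 1.95 with GR24, -0.89, -1.16 and -1.20 with resveratrol and -2.16, -2.17 and -2.51 in the control. Here the groups stood in 3 separate steps, with GR24 highest and the control lowest. The difference between the compounds was 3.02 (SE 0.13, adjusted p = 4.53e-08), and resveratrol itself was above the control by 1.20 (adjusted p = 1.88e-04).

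*Hmox1*, the heme oxygenase that opens the heme ring, stood in steps of the same kind, at 2.67, 2.78 and 2.52 with GR24, 0.35, 0.11 and -0.091 with resveratrol and -1.34, -1.33 and -1.59 in the control. Its difference between the compounds was 2.54 (SE 0.13, adjusted p = 1.11e-07). *Ptgr1*, a reductase of prostaglandins and reactive alkenals, differed by 2.42 (SE 0.16), and the glutathione transferase *Gsta2* by 2.35 (SE 0.28). The remaining increases of the 15 were *C3h15orf48* (3.32), *Rell2*, a relative of Relt, a protein of the TNF receptor family (2.88), the granzyme *Gzmc* (2.78), *Cd68*, given above, and *Angptl6*, an angiopoietin-like secreted protein (2.51). *Fgd6*, an exchange factor for a small GTPase (2.45), the Wnt pathway protein *Dvl3* (2.37), the cholesterol exporter *Abca1* (2.36) and *Tlcd1* (2.32) completed them. Of the 15 genes, *Mt2A*, *Hmox1*, *Ptgr1* and *Gsta2* also differed from the control with resveratrol past the threshold. The size of the increases from dim signals depended on the background correction. With normexp *Plcd4* differed by 2.08, *C3h15orf48* by 1.77, *Gzmc* by 1.59, *Dvl3* by 1.24, *Abca1* by 1.33 and *Gsta2* by 1.33, all past the threshold.

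Some genes were measured with 1 compound only. Of the tested probes, 105 were well above background on all 3 GR24 arrays and on no resveratrol array, and 427 the other way round. Their change is given as a bound, the mean of the bright group against the dim group with each dim array set to the lowest signal well above background there, or to the probe's own signal where that was higher. By this bound *Spmip7*, a sperm microtubule protein, was at least 22.5-fold higher with GR24. *Smpdl3b*, a membrane phosphodiesterase, was at least 9.99-fold higher, the tight junction protein *Tjp3* at least 8.88-fold and the leukocyte surface antigen *Cd52* at least 5.16-fold. The probes of *Spmip7* and *Cd52* were well above background on the GR24 arrays alone and so passed the filter only through that group. Those of *Smpdl3b* and *Tjp3* also passed it only through that group, with 2 of the 3 control arrays well above background. In the other direction *Spata46*, a testis protein, was at least 11.7-fold lower (adjusted p = 1.07e-09) and *Smpx*, a small protein of the muscle cell's costameres, at least 10.9-fold lower. For *Smpx* the bound equals the measured change, since its signal with GR24 (-5.39, -5.52 and -5.27) exceeded, on each array, the dimmest signal that was well above background. The neuropeptide receptor *Npy1r* was at least 10.4-fold lower and *Negr1*, an adhesion protein of neurons, at least 3.69-fold. The bounds hold for the background correction of the scanner software. With normexp the differences of these 8 genes were smaller than the bounds, at 2.23 for *Spmip7* and -1.67 for *Spata46*, and kept their side of the threshold.

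The decrease reached across the muscle programme, and resveratrol lay much nearer to the control there. Of 30 sarcomere genes tested, 27 were lower and 2 higher with GR24, against 25.1% and 31.6% of all genes. Resveratrol itself placed 16 of the 30 under the control and 0 above it, where 10.3% of all genes were lower and 8.63% higher. Their median difference was -1.25, or -1.17 with the 1 dim member at its bound. The list's median signal was 2.96, 2.83 and 2.72 on the GR24 arrays, 4.81, 4.74 and 4.67 on the resveratrol arrays and 5.25, 5.18 and 5.01 on the control arrays. The GR24 arrays lay apart at the bottom, with the resveratrol arrays under the control arrays of the same number by a smaller step. After *Mybph* and *Acta1*, the M-band protein *Myom1* differed by -2.74 and the Z-disc protein *Ldb3* by -2.73. The fast myosin heavy chain *Myh4* read -1.98, -1.97 and -1.54 with GR24, -0.73, -0.78 and -0.62 with resveratrol and 0.50, 0.44 and 0.18 in the control, and the embryonic chain *Myh3* 7.90, 7.83 and 7.81, 8.57, 8.57 and 8.51 and 8.84, 8.97 and 8.75. Both were lower with GR24, by -1.12 (adjusted p = 5.13e-05) and -0.70 (adjusted p = 1.73e-05). The exceptions were *Actn3*, the alpha-actinin of fast fibres, and the tropomyosin *Tpm3*, which were higher with GR24, by 1.31 and 0.27, with the 4 probes of *Tpm3* between -0.092 and 0.92. With normexp the difference of *Actn3* was 0.56. The call of *Tpm3* was lost under 7 alternatives, with an adjusted p of up to 0.137 without resveratrol replicate 3. *Actn3* was lower than the control with resveratrol (-0.62, adjusted p = 0.0412) and higher with GR24 (0.69, adjusted p = 0.00714). The intermediate filament gene *Des* was not past the threshold, at 0.26 with an interval of -0.0067 to 0.52, and passed it with the replicate number as a block (adjusted p = 0.0256).

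Excitation-contraction and junction genes moved in the same direction, with 21 of 27 lower and the other 6 not past the threshold. Their median was -1.07, or -0.99 with the 2 dim members at their bounds. Resveratrol placed 7 of the 27 under the control and 0 above it. With the percentile over spots, 21 were lower and 1 was higher. *Sln*, a peptide that inhibits the calcium pump, differed by -2.67, and *Cav3*, the caveolin of muscle, by -2.12. The calcium pump of fast fibres, *Atp2a1*, read 2.05, 1.90 and 1.89 on the GR24 arrays, 3.34, 3.30 and 3.17 on the resveratrol arrays and 3.95, 3.96 and 3.83 on the control arrays. Its GR24 values lay under all others, with a difference of -1.32 (SE 0.073, adjusted p = 2.14e-07). The pump of slow fibres and other tissues, *Atp2a2*, was not past the threshold with its brightest probe (-0.068, interval -0.24 to 0.10), while its 3 probes reached -1.17. Subunits of the acetylcholine receptor were divided. *Chrnb1* and *Chrnd* were lower with GR24 (-0.99 and -0.57), while *Chrna1*, *Chrne* and *Chrng* did not pass the threshold, with intervals of -1.11 to 0.23, -0.51 to 0.36 and -0.30 to 0.16. With the replicate block *Chrna1* passed it (adjusted p = 0.011), and *Chrne* was well above background on 2 of the GR24 arrays.

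Genes of fusion and creatine metabolism numbered 15, of which 10 were lower and 2 higher (median -0.81). Resveratrol placed 8 of the 15 under the control and 0 above it. *Ckm*, the creatine kinase of muscle, read -0.41, -0.51 and -0.59 with GR24, 1.07, 1.21 and 0.84 with resveratrol and 2.19, 2.15 and 1.89 in the control. These groups formed 3 steps downward from the control, and the difference between the compounds was -1.54 (SE 0.14, adjusted p = 6.44e-06). *Art1*, an ADP-ribosyltransferase of the muscle surface, was well above background on 1 of the 3 GR24 arrays. It was lower with GR24 (adjusted p = 4.27e-08), and the size depended on the background correction, at -4.96 as measured and -2.96 with normexp. *Klhl40*, which stabilises thin filament proteins, was higher with GR24 than with resveratrol (1.12), since it was lower than the control with resveratrol (-0.68, adjusted p = 0.0425) and not past the threshold with GR24 (0.44, adjusted p = 0.0865). The glycogen synthase *Gys1* was the other increase, at 0.19, and its call was lost under 5 alternatives with an adjusted p of up to 0.0956, without a filter on dim probes.

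Among 14 myogenic factors, 5 were lower and 1 was higher (median -0.30), and with the percentile over spots 4 were higher. The replicate block gave 7 lower and 2 higher. After *Myog* came *Smyd1*, a methyltransferase of muscle, at -2.69. *Myod1*, the factor that commits cells to muscle, read -6.95, -6.84 and -5.91 with GR24, -4.95, -5.30 and -5.14 with resveratrol and -4.04, -4.04 and -3.97 in the control. It was well above background on no GR24 array and on 2 of the resveratrol arrays, and it was lower with GR24 (adjusted p = 4.32e-04). Its bound of 1.49-fold takes in a resveratrol array that was not well above background, so it is no firm lower limit. Resveratrol also stood under the control, by -1.11 (adjusted p = 0.00846). *Myf5* and *Myf6*, the remaining MyoD relatives, were lower, at -0.87 and -0.89, with *Myf6* well above background on 2 of the 3 GR24 arrays. The satellite cell factors *Pax7* and *Pax3* were not past the threshold, with intervals of -0.73 to 0.0064 and -0.67 to -0.013. With the replicate number as a block *Pax3* passed it (adjusted p = 0.0238). *Mef2a* (-0.021) and *Mef2d* (-0.25) were not past it either, *Mef2d* passed it with the block (adjusted p = 0.00414) and its second probe gave 1.38. *Mef2b* was higher at 0.63.

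**Figure D2:**
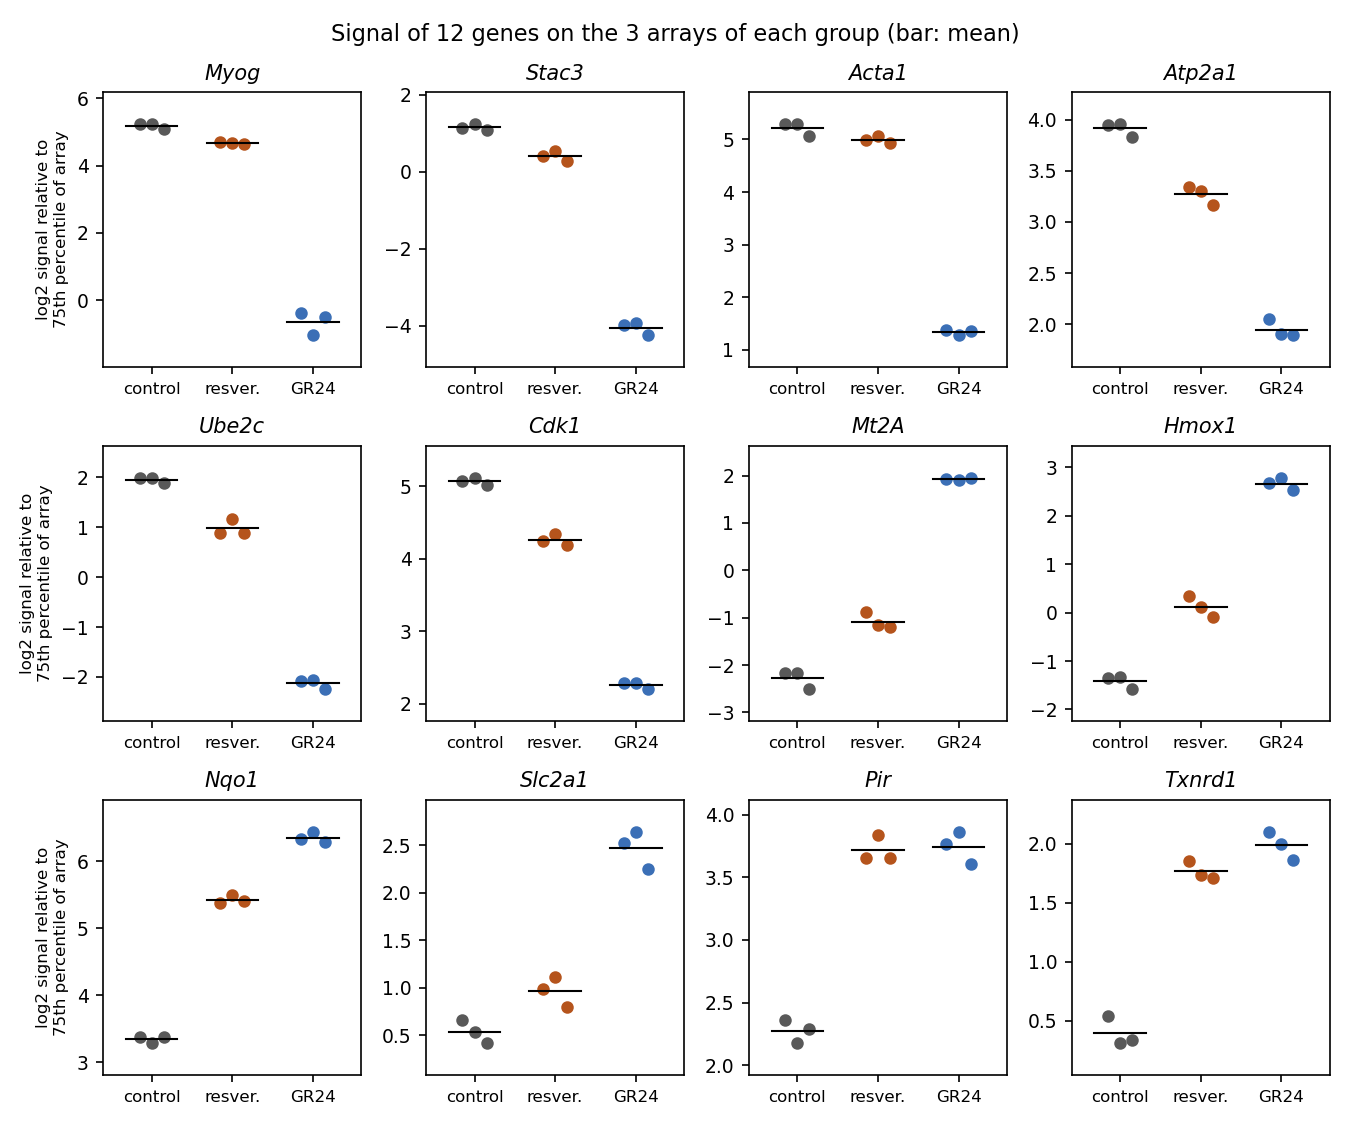
Log2 signal relative to the 75th percentile of the array for 12 genes on the 3 control, 3 resveratrol and 3 GR24 arrays, with each array as a point and each group mean as a bar. In the muscle and mitosis genes the GR24 arrays lie lowest, in *Mt2A*, *Hmox1* and *Nqo1* they lie highest, and in *Pir* and *Txnrd1* the arrays of both compounds lie close together above the control.

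Cell cycle genes were low with GR24 as well. All 29 mitosis and spindle genes tested were lower with GR24 than with resveratrol, with a median of -1.84 and a range of -3.10 to -0.23. With the percentile over spots 28 were lower, and the smallest difference, that of the checkpoint gene *Mad2l1* (-0.23), was not past the threshold (adjusted p = 0.124), as under 7 alternatives in all. Resveratrol placed 28 of the 29 under the control, where 10.3% of all genes were lower and 8.63% higher. *Ube2c*, which marks cyclins for destruction at mitosis, read -2.08, -2.06 and -2.25 with GR24, 0.89, 1.15 and 0.88 with resveratrol and 1.99, 1.98 and 1.88 in the control. The kinase gene *Cdk1* read 2.29, 2.29 and 2.20, 4.25, 4.34 and 4.19 and 5.08, 5.12 and 5.02 in the same order. Neither gene had a GR24 array within the range of the others, and from resveratrol to GR24 *Ube2c* fell by 3.10 (adjusted p = 4.54e-09) and *Cdk1* fell by 2.00 (adjusted p = 7.17e-09). *Cenpf*, a centromere protein, differed by -2.96, and *Mki67*, used widely as a label of dividing cells, by -2.02.

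For DNA replication, 19 of 33 genes were lower and 2 higher with GR24 than with resveratrol (median -0.42). Resveratrol placed 28 of the 33 under the control and 0 above it. *Rrm2*, a subunit of ribonucleotide reductase, was lower, at -2.13. *Mcm10*, an initiation factor, was well above background on 1 of the 3 GR24 arrays and was lower as well, at -2.08 as measured and -0.84 with normexp. The members of the replicative helicase did not move alike. *Mcm7* differed by -1.34, *Mcm3* by -0.46, *Mcm4* by -0.29 and *Mcm2* by -0.28, and *Mcm6* by 0.093 with an interval of -0.16 to 0.35. Under 4 alternatives (adjusted p up to 0.0571) *Mcm2* was not past the threshold. The call of *Mcm4* was lost under 2 (up to 0.0540) and that of *Mcm3* under 1 (0.0561). The sliding clamp *Pcna* differed by -0.023, with an interval of -0.16 to 0.11. *Tyms*, which makes thymidylate, and *Prim1*, a primase subunit, were higher with GR24 (0.30 and 0.73). In 21 genes of CDK inhibitors, cyclins and the DNA damage response, 3 were higher and 9 lower, and the median of -0.10 became 0.0096 with the percentile over spots. The CDK inhibitor *Cdkn1c* was lower, at -1.54, and the cyclin *Ccnd3* at -1.27, while the nuclease *Aen* was higher by 0.47.

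Markers of undifferentiated cells did not move as a block. Of 11 tested, 4 were lower and 1 was higher (median -0.12). After *Mki67* and *Myf5* these were the surface protein *Thy1* (-0.80) and vimentin, *Vim* (-0.28). The increase was in *Id2*, an inhibitor of the partners of MyoD, which read 0.64, 0.55 and 0.53 with GR24, -0.57, -0.72 and -0.64 with resveratrol and -0.50, -0.63 and -0.78 in the control. Only its GR24 arrays stood out, by 1.22 over resveratrol (SE 0.088, adjusted p = 1.43e-06). *Id1* differed by 0.069, with an interval of -0.13 to 0.27. Of 14 Id and Notch pathway genes, 5 were lower and 1, *Id2*, was higher (median -0.14), and with the replicate number as a block 5 were lower and 2 higher. The receptor *Notch1* and the ligand *Dll1* were lowest, at -2.09 and, with 2 of 3 GR24 arrays well above background, -1.63, and the target *Hes1* was not past the threshold (-0.034, interval -0.31 to 0.24) although it was above the control with both compounds (0.65 and 0.69).

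**Figure D3:**
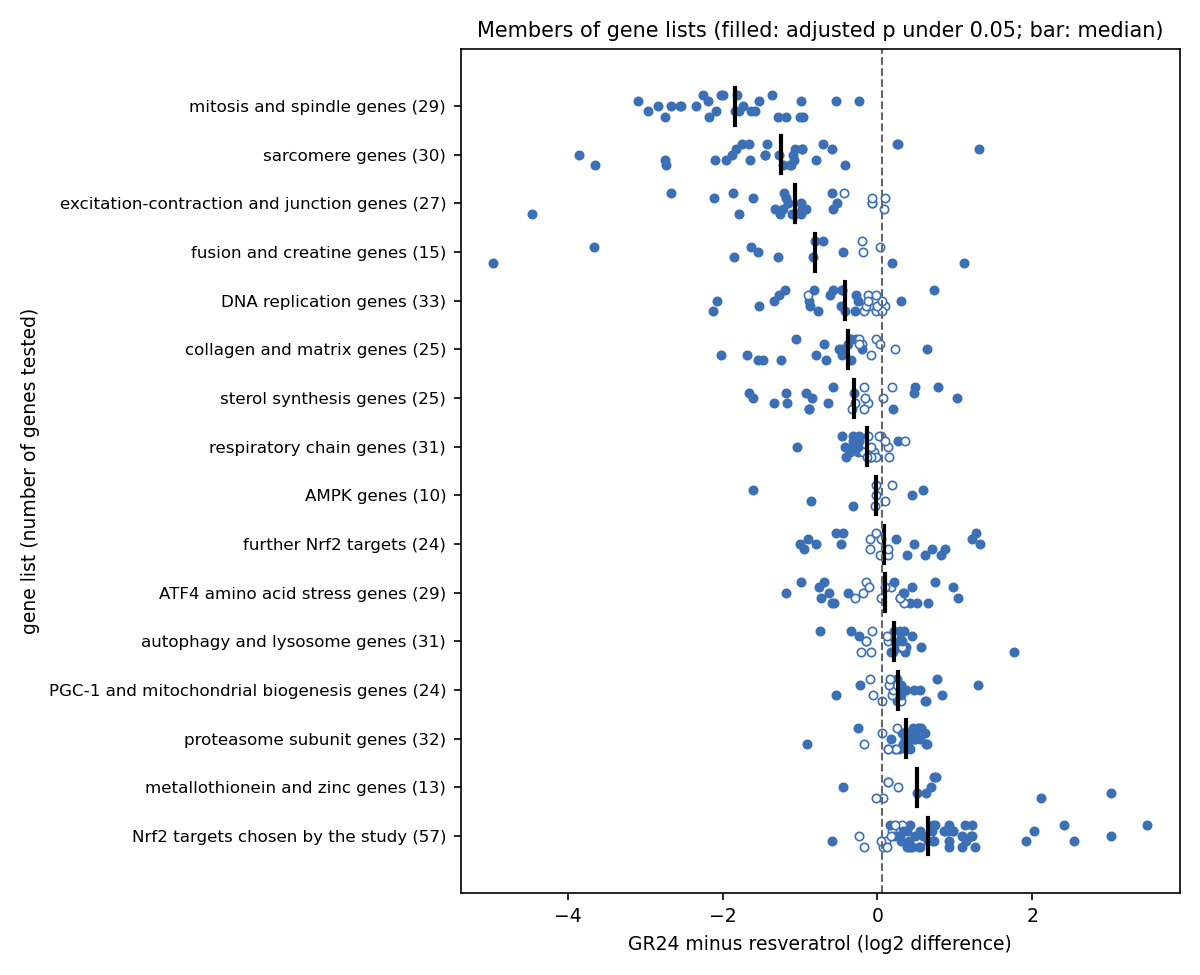
GR24 minus resveratrol difference (log2) of the tested members of 16 gene lists, with 1 point a gene (filled where the adjusted p was under 0.05) and a bar at the median of each list, and the dashed line at the median of all 10741 genes. Mitosis, sarcomere and excitation-contraction genes lie mostly to the left, and the Nrf2 genes of the study, zinc genes and proteasome genes mostly to the right.

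In the list of Nrf2 targets that the study chose, most genes were higher with GR24 than with resveratrol, but both compounds raised many of them. The list of 57 was drawn up by the study on these samples and is no independent evidence of its direction. Of its 57 genes, 45 were higher and 1 was lower with GR24 than with resveratrol (47 and 3 with the replicate block), with a median of 0.65, and resveratrol placed 39 above the control. The median over the list was 1.23 from the control with GR24 and 0.58 with resveratrol. The lower gene was the aldo-keto reductase *Akr1c15* (-0.59, adjusted p = 2.44e-05).

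By function within the list of the study, the gap between the compounds was widest in drug oxidation and reduction, with a median of 1.09 over 7 genes. The limit given for the list holds for each of its classes. *Nqo1*, which reduces quinones, read 6.33, 6.44 and 6.28 on the GR24 arrays, 5.37, 5.50 and 5.40 on the resveratrol arrays and 3.38, 3.28 and 3.38 on the control arrays. All arrays of both compounds stood over the control, and GR24 lay above resveratrol by 0.92 (SE 0.069, adjusted p = 1.83e-06). The 6 conjugation genes had a median of 0.93. Of these, *Gsta1* read 5.43, 5.45 and 5.19 with GR24, 4.27, 4.06 and 4.06 with resveratrol and 0.78, 0.83 and 0.73 in the control, and *Gstp1* 6.99, 7.03 and 6.92, 6.64, 6.48 and 6.49 and 4.62, 4.76 and 4.50. Their differences between the compounds were 1.22 (adjusted p = 2.26e-06) and 0.44 (adjusted p = 8.24e-04). *Gsta5*, which the study lists under an older name, differed by 2.02, and *Gstm1* by 0.72. Among 5 transporters the median was 0.66, with the exporter *Abcc4* at 0.98.

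The 14 genes of antioxidant systems had a median of 0.62, and 11 of them were higher with GR24. Catalase, *Cat*, was higher by 1.13 (SE 0.10) and thioredoxin, *Txn1*, by 0.91 (SE 0.074). *Srxn1*, the sulfiredoxin that repairs peroxiredoxins, differed by only 0.38 (adjusted p = 0.0273), as it was far above the control with both compounds (2.32 with GR24 and 1.93 with resveratrol). Under 6 alternatives (adjusted p up to 0.102) its call was lost. The cystine carrier *Slc7a11* was not past the threshold between the compounds (-0.24, interval -0.45 to -0.027, and adjusted p = 0.0294 with the replicate block), and it was above the control by 1.02 with GR24 and 1.26 with resveratrol. *Gclc*, the first enzyme of glutathione synthesis, was higher by 0.29, and not past the threshold under 6 alternatives (adjusted p up to 0.0659). For carbohydrate metabolism and NADPH supply the median over 7 genes was 0.41. The malic enzyme *Me1* was not past the threshold (0.12, interval -0.031 to 0.28), and passed it under 5 alternatives.

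In heme and iron metabolism the median of 6 genes was 0.65. The biliverdin reductases *Blvra* and *Blvrb* were higher by 0.59 and 0.71 and the ferrochelatase *Fech* by 0.86. The ferritin chain *Fth1* differed by 0.16 (adjusted p = 0.0391), not past the threshold under 9 alternatives (adjusted p up to 0.143), and *Ftl1* was not past the threshold (0.067, interval -0.11 to 0.25). The 4 genes of lipid metabolism were all higher with GR24 (median 0.79), while their median with resveratrol was 0.0018 from the control. Transcription factors and their partners had a median of 0.38 over 7 genes. *Nfe2l2*, the gene of Nrf2, was higher by 0.38 (adjusted p = 0.0165) and *Keap1*, the only gene in its class of the list, by 0.55 (adjusted p = 5.33e-05). The call of *Nfe2l2* was lost under 3 alternatives (adjusted p up to 0.0651). *Sqstm1*, the autophagy receptor that can displace Nrf2 from Keap1, had the largest difference of the list with the probe the study names (3.48), but its brightest probe differed by only 0.19, a call lost under 7 alternatives (adjusted p up to 0.142). The values of the study's probe were 5.75, 5.84 and 5.58 with GR24, 2.29, 2.24 and 2.19 with resveratrol and 2.26, 2.27 and 2.17 in the control. Those of the brightest probe were 6.31, 6.23 and 6.38, 6.17, 6.11 and 6.07 and 5.36, 5.41 and 5.31, so the size of the change in this gene depends on the probe.

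Outside the study's list, Nrf2 targets were mixed. Of 24 tested, 10 were higher and 7 lower with GR24 than with resveratrol, and the median of 0.086 was near that of all genes. *Tigar*, which lowers glycolytic flux, and *Maff*, a small Maf partner of Nrf2, were higher by 1.32 and 1.27, and the glutathione reductase *Gsr* by 0.82. Of the glutathione-dependent enzymes, *Mgst3* fell by 1.00 and *Gsta4* fell by 0.95. *Aldh3a1* read 7.66, 7.73 and 7.58 with GR24, 8.50, 8.67 and 8.50 with resveratrol and 8.62, 8.95 and 8.73 in the control, so this aldehyde dehydrogenase was lowest with GR24 (difference -0.90, adjusted p = 2.06e-05). Each resveratrol array lay under the control array of its replicate number, with a mean difference of -0.21 (adjusted p = 0.168). *Pir*, an iron protein that binds transcription factors, was as high with one compound as with the other. It read 3.76, 3.86 and 3.61 with GR24, 3.65, 3.84 and 3.65 with resveratrol and 2.36, 2.17 and 2.29 in the control, and the interval of the difference was -0.18 to 0.24.

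Promoter sequences were available from RefSeq for part of these genes, as 300 bases around each transcript start on the rat assembly GRCr8. The core of the antioxidant response element, TGACNNNGC on either strand, was looked for in them. It was found in 12 of 47 promoters (25.5%) of the study's Nrf2 list, 3 of 19 (15.8%) of the further targets, 3 of 13 (23.1%) of the largest increases and 2 of 11 (18.2%) of the largest decreases. Over all 27457 promoters of the table the count was 3342 (12.2%). These are counts of a short match, and binding of Nrf2 was not measured. The form TGACTCAGC, or its reverse complement GCTGAGTCA, was in the promoters of *Mt2A*, *Prdx1*, *Gstp1*, *Me1* and *Pir*, whose differences between the compounds were 3.02, 0.49, 0.44, 0.12 and 0.031. Those of *Mt2A*, *Gstp1* and *Pir* are printed as examples from the largest to the smallest of these differences, chosen after the values were seen. Matches are in capitals. The promoter of *Mt2A* lies at chr19:10838659-10838958 on the minus strand and reads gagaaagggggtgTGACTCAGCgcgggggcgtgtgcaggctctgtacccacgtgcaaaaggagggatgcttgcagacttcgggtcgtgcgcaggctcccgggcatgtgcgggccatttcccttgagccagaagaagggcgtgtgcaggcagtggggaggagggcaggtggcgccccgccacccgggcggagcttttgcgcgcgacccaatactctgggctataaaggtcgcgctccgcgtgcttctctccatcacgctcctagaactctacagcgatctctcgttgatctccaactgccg. That of *Gstp1* lies at chr1:210769656-210769955 on the minus strand and reads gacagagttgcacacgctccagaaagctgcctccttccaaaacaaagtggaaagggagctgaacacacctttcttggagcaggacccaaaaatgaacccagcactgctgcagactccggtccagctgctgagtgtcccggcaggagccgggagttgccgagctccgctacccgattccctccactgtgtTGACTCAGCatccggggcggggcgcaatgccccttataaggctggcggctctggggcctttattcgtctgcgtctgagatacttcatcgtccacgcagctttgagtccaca. That of *Pir* lies at chrX:33851000-33851299 on the minus strand and reads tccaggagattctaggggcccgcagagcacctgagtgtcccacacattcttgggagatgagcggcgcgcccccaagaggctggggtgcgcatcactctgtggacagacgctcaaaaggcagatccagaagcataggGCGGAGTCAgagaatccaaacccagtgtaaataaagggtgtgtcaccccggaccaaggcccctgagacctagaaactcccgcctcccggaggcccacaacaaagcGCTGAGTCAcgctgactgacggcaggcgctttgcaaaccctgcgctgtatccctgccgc.

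Metallothionein and zinc genes were higher in part. Of 13 tested, 7 were higher, with *Mt2A* among them, and 1 was lower with GR24 (median 0.51). *Mt1* read 3.03, 3.02 and 2.97 with GR24, 1.10, 0.81 and 0.77 with resveratrol and 0.66, 0.58 and 0.51 in the control, and its GR24 arrays stood far above the others (difference 2.11, SE 0.10, adjusted p = 9.44e-08). The zinc importer *Slc39a14* was higher by 0.75 and the exporter *Slc30a1* by 0.73. *Mt3*, a metallothionein best known from the brain, went the other way at -0.45 (adjusted p = 0.0101). Its call was lost under 1 alternative (adjusted p = 0.0868). The zinc sensor *Mtf1* was not past the threshold (0.13, interval -0.052 to 0.32).

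Protein quality control genes rose in part. Of 32 proteasome subunits, 24 were higher and 2 lower (median 0.37), although no increase exceeded 0.64, that of the lid subunit *Psmd11*. Next was *Psmd3* with 0.63, and the exceptions were the activator *Psme4* (-0.91) and the ATPase *Psmc6* (-0.25), whose call was lost under 9 alternatives with an adjusted p of up to 0.173, over spots. The list's median signal was 5.13, 5.22 and 4.93 on the GR24 arrays, 4.95, 4.91 and 4.73 on the resveratrol arrays and 4.78, 4.73 and 4.68 on the control arrays. For each replicate number the GR24 array was the highest of the 3. In 31 autophagy and lysosome genes, 14 were higher and 3 lower (median 0.22; 19 and 5 with the replicate block, 22 and 2 over spots), from *Wipi2*, a protein of early autophagosomes, at 1.76, and *Tfeb*, the regulator of lysosome genes, at 0.57, down to the receptor *Optn* at -0.74, whose 3 probes reached 0.16, and *Wipi1* at -0.35. Cytosolic heat shock genes numbered 24, with 11 higher and 6 lower (median 0.25). *Hspb7* and *Bag3*, both of which act in muscle, were higher by 0.84 and 0.78. The muscle forms *Hspb3* and *Hspb2* had the largest decreases, *Hspb2* at -1.14, and the inducible *Hspa1a* was not past the threshold (0.33, interval -0.035 to 0.69, and adjusted p = 0.0238 with the replicate block).

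The ATF4 genes, which serve amino acid supply under stress, were divided. Of 29 tested, 11 were higher and 9 lower with GR24 than with resveratrol (median 0.10). *Gdf15*, a secreted stress cytokine, read -3.01, -2.45 and -3.30 with GR24, -3.72, -3.79 and -4.37 with resveratrol and -5.42, -6.11 and -6.23 in the control, in 3 separate steps (difference 1.04, SE 0.27, adjusted p = 0.0082). Control replicates 2 and 3 lay under the lowest signal well above background on their arrays (-5.29 and -6.06). The size of the step from the control thus rests on dim signals. *Slc3a2*, a subunit of amino acid carriers, was higher by 0.98. Asparagine synthetase, *Asns*, read 2.13, 2.16 and 1.78 with GR24, 2.81, 2.85 and 2.58 with resveratrol and 2.05, 2.06 and 1.91 in the control. Here the resveratrol arrays were the high ones, 0.74 over the control (adjusted p = 0.00244), while GR24 was 0.016 from the control (adjusted p = 0.932). The same held for *Atf5* (1.01 with resveratrol and 0.016 with GR24), *Pck2* (0.82 and 0.13) and *Mthfd2* (0.50 and -0.13), where the resveratrol value was past the threshold against the control and the GR24 value was not. Between the compounds *Atf5* differed by -0.99 and the lipoprotein receptor *Vldlr* by -1.19. Endoplasmic reticulum chaperone and degradation genes were divided, with 6 of 24 higher and 7 lower, and a median of -0.075 that became 0.036 with the percentile over spots. The oxidase *Ero1b* and the degradation factor *Sel1l* were higher (1.59 and 1.17), with *Ero1b* well above background on 1 of the 3 resveratrol arrays. The sensor *Atf6* and *Sdf2l1* were lower (-1.09 and -1.01), and a second probe of *Atf6* gave -0.23.

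Resveratrol is known for its link to sirtuins, AMPK and PGC-1, and a list was kept for each. *Sirt1* and *Sirt2* were not analysed here, and *Ppargc1a*, which encodes PGC-1 alpha, did not pass the filter on dim signals. Of 10 sirtuin and NAD genes, 6 were higher and 2 lower with GR24 than with resveratrol (median 0.42), led by *Sirt4* (1.07) and the NAD kinase *Nadk* (1.00), with *Sirt5* (-0.29) and *Parp1* (-0.23) lower. The call of *Parp1* was lost under 9 alternatives (adjusted p up to 0.132) and that of *Sirt5* under 1 (0.0576). With the percentile over spots 8 of the list were higher and 0 lower. Against the control, resveratrol itself changed 1 of the 10 past the threshold, *Sirt4*, which was lower (-0.39, adjusted p = 0.02). *Nampt*, the rate-limiting enzyme of NAD salvage, read -0.095, 0.21 and -0.20 with GR24, -0.68, -0.54 and -0.83 with resveratrol and -0.77, -0.98 and -0.69 in the control. Its GR24 arrays were the high ones (difference 0.65, SE 0.14, adjusted p = 0.00282). AMPK genes numbered 10, with 2 higher and 3 lower, and a median of -0.017 that took either sign over the alternatives. *Prkaa2*, the catalytic subunit abundant in muscle, read -7.05, -6.69 and -7.12 with GR24, -5.70, -4.97 and -5.35 with resveratrol and -3.65, -3.81 and -3.42 in the control, and was well above background on no array of either compound. It counts among the decreases by the fit (adjusted p = 3.76e-04), but has no fold here. The other catalytic subunit, *Prkaa1*, differed by -0.018, with an interval of -0.17 to 0.13, while its second probe gave 0.84. The upstream kinases *Camkk2* and *Stk11* moved apart, at -0.85 and 0.59, and the regulatory subunit *Prkag2* was higher at 0.45.

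PGC-1 and mitochondrial biogenesis genes were higher with GR24 in 13 of 24 cases and lower in 2 (median 0.27). The increases were largest in the mitochondrial DNA machinery, with the helicase *Twnk* at 1.30 and the RNA polymerase *Polrmt* at 0.83. *Tfam*, which packs mitochondrial DNA, read 3.74, 3.75 and 3.58 with GR24, 3.20, 3.22 and 3.23 with resveratrol and 2.90, 3.08 and 3.04 in the control (difference 0.48, SE 0.073, adjusted p = 3.12e-04). Cytochrome c, *Cycs*, and the factor *Gabpa* were the decreases (-0.53 and -0.23). The decrease of *Gabpa* was not past the threshold under 7 alternatives (adjusted p up to 0.223), and over spots 16 of the list were higher and 1 lower. The respiratory chain itself moved the other way, with 14 of 31 subunits lower and 1 higher (median -0.14), and with the percentile over spots 8 lower and 5 higher, or 16 and 2 with the replicate block. The muscle form *Cox6a2* had the largest decrease (-1.05), and all other decreases were 0.46 or less in size, with the complex III subunit *Uqcrc2* next. *Ndufa5* was the increase, at 0.27, and lost its call under 4 alternatives (adjusted p up to 0.0866). Against the control the list's median was -0.16 with GR24 and 0.0067 with resveratrol.

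Glucose transporters diverged. *Slc2a1*, the transporter of most cells, read 2.52, 2.64 and 2.25 with GR24, 0.99, 1.12 and 0.80 with resveratrol and 0.66, 0.54 and 0.41 in the control. It was highest on the GR24 arrays, by 1.50 over resveratrol (SE 0.13, adjusted p = 4.93e-06). *Slc2a4*, the transporter that insulin sends to the muscle surface, read -0.47, -0.58 and -0.45 with GR24, 0.73, 0.69 and 0.61 with resveratrol and 0.80, 0.74 and 0.71 in the control. It was lowest on the GR24 arrays, by -1.18 (SE 0.066, adjusted p = 2.38e-07), and resveratrol lay -0.072 from the control (adjusted p = 0.55). Over 21 genes of glucose uptake and insulin signalling, 6 were higher and 8 lower (median -0.11). The insulin receptor *Insr* was higher by 1.09 and the related receptor *Igf1r* lower, at -1.15 with its brightest probe and 0.38 with the other. Glycolysis and TCA cycle genes were 10 higher and 10 lower of 27 (median 0.13). The largest increases were those of the glycolytic enzymes *Pfkp* at 0.91 and *Pkm* at 0.74. Decreases included the lactate dehydrogenase *Ldhb* at -1.01, the mitochondrial *Idh2* at -0.89 and the muscle forms *Pfkm* (-0.51) and *Eno3* (-0.46).

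Lipid genes were mixed as well. For fatty acid uptake and oxidation, 7 of 23 were higher and 6 lower (median 0.048). *Angptl4*, an inhibitor of lipoprotein lipase, read -0.86, -0.92 and -1.14 with GR24, -2.48, -2.55 and -2.87 with resveratrol and -2.49, -2.37 and -2.56 in the control, and only GR24 raised it (difference 1.66, SE 0.13, adjusted p = 2.29e-06). The thiolase *Acaa2* was higher by 0.91. The fatty acid carrier *Cd36* was at least 2.37-fold lower and the uncoupling protein *Ucp3* at least 2.5-fold, since neither was well above background on any GR24 array. In fatty acid synthesis 2 of 14 were higher and 5 lower, with a median of -0.079 that took either sign over the alternatives. The desaturase *Fads1* and the ligase *Acsl3* fell furthest (-0.94 and -0.99), and *Srebf1* and *Acly* were higher (0.31 and 0.24). The call of *Acly* was lost under 7 alternatives (adjusted p up to 0.155) and that of *Srebf1* under 3 (up to 0.0716). The synthase *Fasn* differed by 0.0033, with an interval of -0.28 to 0.28. Sterol synthesis genes were lower in 12 and higher in 5 of 25 (median -0.30). *Hmgcs1*, at the start of the pathway, was lower, at -1.66, and *Hsd17b7*, toward its end, was higher by 0.78. The values of *Hmgcs1* were 4.48, 4.59 and 4.16 with GR24, 6.08, 6.24 and 5.89 with resveratrol and 6.77, 6.85 and 6.46 in the control.

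Growth factor and matrix genes were largely lower. Of 23 TGF-beta and IGF genes, 13 were lower and 1 was higher (median -0.50), and with the percentile over spots 2 were higher. After *Acta2*, the matricellular protein *Ccn2* read 5.41, 5.52 and 5.40 with GR24, 7.12, 7.34 and 7.20 with resveratrol and 7.27, 7.31 and 7.23 in the control (difference -1.78, SE 0.071, adjusted p = 2.90e-08). The inhibitory *Smad7* was higher by 0.28, but lost its call under 5 alternatives (adjusted p up to 0.0932). Collagen and matrix genes were lower in 17 of 25 cases and higher in 1, the protease inhibitor *Timp1* (0.64), with a median of -0.39. *Thbs2* and *Col11a1* differed most (-2.02 and -1.69), and *Col3a1* read 5.46, 5.57 and 5.31 with GR24, 6.91, 7.14 and 6.90 with resveratrol and 7.03, 7.08 and 6.99 in the control. Atrophy, Foxo and myostatin genes were 3 higher and 6 lower of 12 (median -0.32). The ubiquitin ligases of muscle atrophy, *Fbxo32* and *Trim63*, did not pass the threshold, with intervals of -0.60 to 0.086 and -0.082 to 0.37. *Fbxo31* and *Foxo3* were higher (1.08 and 0.59), and *Klf15* and the myostatin antagonist *Fst* lower (-1.92 and -1.18), with *Klf15* well above background on 2 of the 3 GR24 arrays.

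Some genes left the control in opposite directions with the 2 compounds. Past the threshold against the control in both cases, 93 genes were higher with GR24 and lower with resveratrol, and 108 the reverse. Among the first were *Smpdl3b* and *Tjp3*, given above as bounds, and *Fyb1* and *Pilra*, at least 4.05-fold and 4.65-fold higher with GR24 than with resveratrol. These last were the 2 of the 93 that were well above background on no control and no resveratrol array, so their side of the control with resveratrol was not measured. They were well above background on the GR24 arrays alone, and so passed the filter only through that group. The same held for 2 of the 108 with the control and GR24. *Nt5c*, a nucleotidase, read 1.08, 1.05 and 0.68 with GR24, -1.25, -1.06 and -1.32 with resveratrol and -0.33, -0.49 and -0.45 in the control. The control arrays lay between the others, and the compounds differed by 2.15 (SE 0.11, adjusted p = 1.51e-07). *Shcbp1l* differed by 2.03. Of those that went the other way, *Cyp26b1*, which breaks down retinoic acid, read -1.75, -2.20 and -1.96 with GR24, 0.47, 0.22 and 0.43 with resveratrol and -0.83, -1.20 and -1.18 in the control. The compounds differed by -2.34 (SE 0.15, adjusted p = 6.65e-07), from -0.90 with GR24 and 1.44 with resveratrol against the control. Endothelin, *Edn1*, differed by -2.42, the actin bundler *Fscn2* by -2.83 and the adhesion molecule *Vcam1* by -2.53. For *Npy1r*, *Stc1* and *Vcam1* the increase with resveratrol was small, with adjusted p of 0.0472, 0.0458 and 0.048 against the control.

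Some genes were changed further by resveratrol. Of the genes at least 2-fold above the control with resveratrol, 19 were lower with GR24 than with resveratrol, and of those at least 2-fold under the control, 16 were higher. Over all genes 25.1% were lower and 31.6% higher with GR24. The totals of genes that resveratrol changed at least 2-fold are not given here, so the counts cannot be read as shares. The same resveratrol arrays enter both comparisons, so the counts are no test of a direction. On the rising side, *RGD1562890*, a gene without an assigned function, read -2.47, -2.43 and -2.37 with GR24, -0.79, -0.90 and -0.86 with resveratrol and -2.38, -2.27 and -2.33 in the control. Resveratrol raised it by 1.47 (adjusted p = 1.23e-06), its difference from the control with GR24 was -0.097 (adjusted p = 0.281), and the compounds differed by -1.57 (SE 0.071, adjusted p = 6.17e-08). *Osgin1* and *Aox1*, both of the Nrf2 lists, *Dhrs3*, which reduces retinal, and the vasodilator peptide *Adm* were above the control with both compounds, and between the compounds they differed by -0.45, -0.54, -0.78 and -0.50, with the call of *Osgin1* lost under 7 alternatives (adjusted p up to 0.112). On the falling side, *Slurp1*, a secreted ligand of acetylcholine receptors, read -0.22, -0.28 and -0.26 with GR24, -1.51, -1.24 and -1.56 with resveratrol and 0.015, 0.0040 and -0.038 in the control. Its resveratrol arrays were the low ones (difference 1.18, SE 0.10, adjusted p = 5.78e-06). The neurotrophin receptor *Ngfr* differed by 1.18 and *LOC100911827* by 0.21, a call lost under 13 alternatives (adjusted p up to 0.127). *Fgd2* was well above background on 2 of 3 GR24 arrays and on no resveratrol array, and it was 2.05-fold higher with GR24 as measured. Its bound equals this measured change, as for *Smpx*, and so is no separate lower limit. With normexp its difference was 0.26 and no longer past the threshold (adjusted p = 0.0996). With either compound, *Galnt16* was well above background on no array and has no fold here.

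A further set moved alike. Genes at least 2-fold above the control with both compounds, with a 95% interval of the difference between the compounds inside -0.5 to 0.5, numbered 12, and those under the control 4. *Txnrd1*, the thioredoxin reductase of the Nrf2 lists, read 2.10, 2.00 and 1.86 with GR24, 1.86, 1.73 and 1.71 with resveratrol and 0.53, 0.31 and 0.33 in the control. The interval of its difference was 0.010 to 0.43, while the second probe of the gene differed by 1.14. *F3*, the tissue factor that starts clotting, had an interval of 0.014 to 0.30. With the replicate block both passed the threshold, at an adjusted p of 0.004 and 0.0392. In all, *Txnrd1* passed it under 8 alternatives and *F3* under 7. The galectin *Lgals2* was past the threshold with a difference of 0.33 (interval 0.18 to 0.47). *Ripor2*, an inhibitor of RhoA, had an interval of -0.34 to 0.35 with its brightest probe, but its 6 probes ranged from -1.45 to 0.0081. *Sfrp4*, a Wnt antagonist, was well above background on 2 resveratrol arrays and on no GR24 array, so its interval of -0.42 to 0.31 rests on dim signals. Among the decreases were *Mcm6*, given above, *Ptgis*, the prostacyclin synthase (-0.11 to 0.35), the carrier *Slc16a11* (-0.37 to 0.29) and *LOC100911827* (0.053 to 0.36). Of all 11806 probes not past the threshold, 52% had an interval inside these limits, and for the rest a difference beyond them was not excluded by the interval.

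Each compound was measured at 1 dose and 1 time, so the differences describe that dose and time. Uptake of the compounds and the number of living cells were not among the measurements used here.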

How the data were processed

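RNA of 12 cultures was measured on 1-colour Agilent arrays, and the 3 GR24 and the 3 resveratrol arrays were compared. The authors deposited 1 scanner file per array, with a background-subtracted intensity for each spot as the processed signal, made by Feature Extraction 12.0.0.7 within the array. They also deposited a series table of log2 values for 25848 probes. Its columns had medians of 9.21 to 9.24 and correlated at 0.999 with the array's own median signal on the log2 scale. Its normalization is not stated, and it was used as an alternative. Probes were named through RefSeq accessions in the RefSeq table for GRCr8, a rat assembly, from which names alone were taken and which matched 21109 of 45598 probes.

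From the log2 processed signal the array's own 75th percentile over probes was subtracted, with control spots and spots with an outlier mark left out and the spots of 1 probe averaged. The percentile over spots was tried as well, and the choice of probes over spots was made after the counts of both had been seen. Per array 58% to 64.3% of 58717 spots carried the scanner software's mark for well above background, and saturation was marked on none. The 24279 probes tested had the former mark on the 3 arrays of 1 group or more, and 21217 of them had it on each of the 12 arrays. Of the probes tested, 14 lacked a value on 1 or more GR24 or resveratrol arrays.

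All 12 arrays entered 1 fit with a mean for each group in limma 3.58.1 (R 4.3.3), and p-values from eBayes were adjusted by Benjamini-Hochberg over every probe tested. The methods of the study name this test and its threshold but not the arrays in the fit. The script was checked on simulated data. Replicate numbers come from the labels. The deviations of GR24 and resveratrol arrays from their group means correlated at 0.46, 0.42 and 0.72 for the numbers 1, 2 and 3. Number 3 of each group lay on another slide, so these values cannot tell pairing by number from the slide. The main fit holds no block. The fit with the number as a block is given where it changes the call of a named gene or moves a count of a list by over 1.5 times. Alternatives were normexp (offset 50) on the median signal, quantile normalization, both together, the series table, other filters on dim probes, the percentile over probes well above background on all 12 arrays or over spots, a fit of the 6 arrays, a block for the replicate number or for the slide, each slide alone, trend and robust settings of eBayes, outlier spots kept, the mean over the probes of a gene, and each GR24 and resveratrol array left out. The percentile over spots was chosen after the data were seen.

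A gene was represented by the tested probe whose mean over the 12 arrays was highest, or in the list of the study by the probe with its accession. The genes named are the 15 largest increases and decreases past the threshold with no overlap between the groups and all 6 arrays well above background, and the 4 largest each way whose probe was well above background on no array of 1 of the groups. Also named are the 6 largest each way that left the control in opposite directions, that resveratrol changed at least 2-fold from the control and GR24 less, or that changed at least 2-fold with both compounds with an interval of the difference within 0.5 of 0. From each list the 2 largest each way past the threshold are named, and members that are not past it with their interval or beside a relative. Further genes in the text, such as members described beside these, were chosen after their values were seen, and some genes that the rules take are not reported here. The 37 lists hold genes of muscle, cell cycle, stress and metabolism as well as markers of cell types. Members and lists were chosen with earlier results of these data known.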

Additional observations from a re-analysis of the deposited data

How the results depend on the processing

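The numbers of probes past the threshold stayed within 1.5 times of 6662 higher and 5811 lower under each alternative. They were 6485 and 5471 with normexp, 6853 and 5847 with quantile normalization, 6839 and 5650 with both and 7306 and 5330 in the series table of the authors. Without a filter on dim probes they were 6112 and 5203, and with only the 6 arrays in the fit 6448 and 5534. Leaving out 1 array in turn gave 5730 to 6682 higher and 5288 to 5701 lower. With the replicate number as a block they were 7929 and 6926. Under these alternatives each of the 12473 calls kept its sign where its probe was tested. On slide 2, 6654 higher and 5803 lower calls had the same sign, which is no check since its arrays entered the fit.

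Of 246 named genes, 231 kept their direction and 191 also their side of the threshold under each alternative with a test. The replicate block brought 8 of them past the threshold, each given with its value in the report, and changed no other named call. The slide as a block brought 7 past it. Named calls lost without a filter on dim probes numbered 18, with the 6 arrays 13, on slide 1 alone 10 and with the percentile over spots 8, which also added 8. With normexp 40 of 215 named differences past the threshold were smaller by over 1.5 times, among them all genes given as bounds after the largest increases, so the size of a difference from dim signals is known less well than its direction. Those without a value under normexp elsewhere in the text were *Bik* (-0.43), *Camkk2* (-0.39), *Cd36* (-0.35), *Cd52* (0.91), *Clock* (0.89), *Dll1* (-0.68), *Edn1* (-1.48), *Ero1b* (0.56), *Foxo3* (0.37), *Fyb1* (0.62), *Gdf15* (0.57), *Il15* (0.56), *Insr* (0.66), *Klf15* (-0.89), *Mt3* (-0.22), *Myf6* (-0.26), *Myod1* (-0.23), *Negr1* (-0.73), *Ngfr* (0.52), *Npy1r* (-1.57), *Pilra* (0.62), *Prkaa2* (-0.30), *Smpdl3b* (1.27), *Smpx* (-1.55), *Smyd1* (-1.64), *Tjp3* (1.23) and *Ucp3* (-0.41).

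The genes whose sign turned were not past the threshold in the reported values, and the cause was not tested. With the percentile over spots the sign turned for *Atp2a2* (0.042), *Chrne* (0.033), *Chrng* (0.041), *Hes1* (0.076), *Mef2a* (0.090), *Pcna* (0.087), *Prkaa1* (0.092), *Sfrp4* (0.058) and *Slc16a11* (0.069). With the percentile over probes well above background on all 12 arrays it turned for *Prkaa1* (0.00010). With quantile normalization it turned for *Atp2a2* (0.020) and *Prkaa1* (0.0065). With normexp it turned for *Chrne* (0.00090), *Cyp1b1* (0.029) and *Ripor2* (-0.0029). With normexp and quantile normalization it turned for *Atp2a2* (0.047) and *Prkaa1* (0.013). In the series table it turned for *Atp2a2* (0.047), *Chrng* (0.0086), *Mef2a* (0.019), *Pcna* (0.062) and *Prkaa1* (0.076). On slide 1 alone it turned for *Hes1* (0.036), *Mef2a* (0.097), *Prkaa1* (0.018), *Ripor2* (-0.016) and *Sfrp4* (0.018). With the mean over the probes of a gene it turned for *Mef2d* (0.57), *Prkaa1* (0.41) and *Ripor2* (-0.24). All of these were past the threshold there, with an adjusted p of 2.46e-05, 2.5e-04 and 0.0186. Leaving out 1 array in turn gave both signs for *Chrne* (-0.25 to 0.088), *Chrng* (-0.15 to 0.010), *Cyp1b1* (-0.45 to 0.051), *Fasn* (-0.059 to 0.072), *Hes1* (-0.088 to 0.062), *Id1* (-0.0085 to 0.14), *Mef2a* (-0.20 to 0.24), *Pcna* (-0.066 to 0.017), *Pir* (-0.028 to 0.100), *Prkaa1* (-0.043 to 0.025), *Ripor2* (-0.11 to 0.099), *Sfrp4* (-0.19 to 0.11) and *Slc16a11* (-0.20 to 0.084).

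Single arrays moved calls of small differences, given here with the adjusted p of limma. Without GR24 replicate 1, *Acly* (0.106), *Fth1* (0.0999), *Gclc* (0.0565), *Gys1* (0.082), *LOC100911827* (0.0813), *Mad2l1* (0.0598), *Osgin1* (0.0532), *Parp1* (0.0533), *Psmc6* (0.0556), *Smad7* (0.0932), *Sqstm1* (0.0907), *Srebf1* (0.0671), *Srxn1* (0.0989), *Stk11* (0.0516) and *Tpm3* (0.129) lost their call. Without GR24 replicate 2, *Acly* (0.155), *Fth1* (0.1), *Gclc* (0.0659), *Greb1* (0.0896), *Gys1* (0.0846), *Klf2* (0.0505), *Ndufa5* (0.0545), *Nfe2l2* (0.0651), *Smad7* (0.0637), *Srxn1* (0.0957) and *Tpm3* (0.104) lost their call and *Pax7* (0.027) gained one. Without GR24 replicate 3, *Fth1* (0.0517), *Gabpa* (0.0854), *Greb1* (0.0707), *LOC100911827* (0.0857), *Mad2l1* (0.0672), *Mcm2* (0.0546), *Osgin1* (0.109), *Parp1* (0.132), *Psmc6* (0.113), *Sqstm1* (0.118) and *Tpm3* (0.0546) lost their call and *Chrna1* (0.0353) and *Txnrd1* (0.0396) gained one. Without resveratrol replicate 1, *Acly* (0.0898), *Fth1* (0.119), *Gclc* (0.0518), *Klf2* (0.0575), *LOC100911827* (0.0634), *Mcm2* (0.0571), *Osgin1* (0.112) and *Parp1* (0.102) lost their call and *Hspa1a* (0.0183) and *Pax3* (0.0447) gained one. Without resveratrol replicate 2, *Gabpa* (0.0616), *Greb1* (0.0923), *LOC100911827* (0.0647), *Mad2l1* (0.0792), *Ndufa5* (0.0562), *Osgin1* (0.0899), *Parp1* (0.108), *Psmc6* (0.119), *Sqstm1* (0.0932), *Srebf1* (0.0716), *Srxn1* (0.0599) and *Tpm3* (0.136) lost their call and *Bmal1* (0.026) and *Slc7a11* (0.0324) gained one. Without resveratrol replicate 3, *Acly* (0.128), *Fth1* (0.104), *Gabpa* (0.0704), *Gclc* (0.0506), *Greb1* (0.0777), *Gys1* (0.0934), *LOC100911827* (0.0679), *Nfe2l2* (0.0635), *Psmc6* (0.0504), *Smad7* (0.0842), *Sqstm1* (0.12), *Srxn1* (0.102), *Stk11* (0.055) and *Tpm3* (0.137) lost their call and *Mef2d* (0.039) and *Pax7* (0.0467) gained one.

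Of 37 gene lists, 31 kept the sign of their median under each alternative. The others lay near 0 and took either sign, with medians of -0.050 to 0.13 for AMPK genes, -0.13 to 0.0096 for CDK inhibitor, cyclin and DNA damage response genes, -0.11 to 0.036 for ER chaperone and ERAD genes, -0.18 to 0.032 for fatty acid synthesis genes, -0.044 to 0.16 for hypoxia genes and -0.051 to 0.28 for markers of other cell types. A median within 1 SD of 0, from the spread of the arrays, was taken to have no direction, a rule set after these values were seen. The 1 of them further from 0, the CDK inhibitor, cyclin and DNA damage response list at -0.10, turned to 0.0096 with the percentile over spots, and the cause was not tested. With the percentile over spots the higher and lower members numbered 4 and 2 for AMPK genes, 2 and 15 for collagen and matrix genes, 5 and 4 for fatty acid synthesis genes and 28 and 1 for proteasome subunit genes, where a count moved by over 1.5 times and is not given elsewhere. The replicate block moved no list count by over 1.5 times apart from those given beside the results. The slide as a block gave 47 and 2 for the Nrf2 targets of the study, 19 and 5 for autophagy, 9 and 1 for clock, 3 and 1 for markers of other cell types, 2 and 8 for myogenic factors and 2 and 16 for respiratory chain. Slide 1 alone gave 1 and 3 for Id and Notch, 13 and 1 for PGC-1, 7 and 1 for clock, 2 and 6 for myogenic factors, 0 and 1 for oestrogen receptor, 25 and 1 for proteasome and 1 and 27 for sarcomere. On slide 1 and slide 2 the medians were -1.84 and -1.91 for mitosis and spindle genes, -1.25 and -1.24 for sarcomere genes, 0.60 and 0.58 for Nrf2 targets chosen by the study and 0.40 and 0.33 for proteasome subunit genes.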

Other observations

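Circadian clock genes were higher with GR24 than with resveratrol in 7 of 14 cases and lower in 0 (9 and 1 with the replicate block), with a median of 0.29. *Nr1d1*, a repressor in the clock, read -0.083, -0.052 and -0.28 on the GR24 arrays, -1.29, -0.83 and -1.55 on the resveratrol arrays and -1.04, -1.03 and -1.41 on the control arrays, so that only GR24 raised it (difference 1.08, SE 0.17, adjusted p = 3.72e-04). *Clock*, the activating partner of Bmal1, was higher by 1.40. *Bmal1* itself was not past the threshold (0.23, interval 0.015 to 0.44). Samples of all groups were taken at 24 h, and other phases of the clock were not measured. Immediate early genes, which respond within minutes to growth signals and stress, were higher in 10 and lower in 3 of 21 (median 0.32). *Fosl1* read 1.89, 1.95 and 1.66 with GR24, 0.068, -0.039 and 0.015 with resveratrol and 0.26, 0.26 and 0.28 in the control, with GR24 alone raised (difference 1.82, SE 0.082, adjusted p = 5.70e-08). *Maff* was next, and *Srf*, which drives both actin genes and immediate early genes, was lower by -0.83, followed by *Klf2* at -0.52.

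In 20 NF-kB and cytokine genes, 9 were higher and 4 lower (median 0.26). The chemokine *Cxcl12* read 0.38, 0.24 and 0.19 with GR24, 3.49, 3.30 and 3.39 with resveratrol and 3.71, 3.85 and 3.61 in the control, and its GR24 arrays lay far under the rest (difference -3.12, SE 0.084, adjusted p = 2.09e-09). The myokine *Il15* and the chemokine *Cxcl1* were higher by 0.90 and 0.77. Of 21 apoptosis regulators, 8 were higher and 4 lower (median 0.18). The largest increases were those of *Bid* at 1.95 and *Mcl1*, which protects cells, at 0.88. *Bik* counts among the decreases by the fit, but has no fold here, since no GR24 array and only 1 resveratrol array were well above background. Hypoxia genes were 6 higher and 4 lower of 15, and their median of 0.052 took either sign over the alternatives, with *Ankrd37* at 1.51 and *Kdm3a* at 0.52 against the carbonic anhydrase *Car9* at -0.94 and *Vegfa* at -0.52, whose 3 probes reached 0.30. *Cyp1a1* and *Cyp1a2* of the Ah receptor list did not pass the filter on dim signals. Of its 8 genes tested, 2 were higher and 1 was lower (median 0.013). The increases were *Nqo1* and *Arnt*, the partner of the receptor (1.16), and the decrease was *Aldh3a1*, while *Cyp1b1*, a target that the receptor controls in many cells, was not past the threshold (-0.14, interval -0.83 to 0.56, with 1 of 3 GR24 arrays well above background). Resveratrol is also known as a weak ligand of oestrogen receptors. The receptor genes *Esr1* and *Esr2* did not pass the filter on dim signals, nor did *Pgr* and *Tff1* of the same list. Of the 3 genes of this list tested, 2 were lower with GR24, *Gper1* by -1.23 and *Greb1* by -0.60. *Greb1* was above the control with resveratrol (0.88, adjusted p = 0.0114) and not with GR24 (0.28, adjusted p = 0.252). It was well above background on 1 of 3 GR24 arrays and 1 of 3 control arrays. The difference of *Greb1* between the compounds was no longer past the threshold under 12 alternatives, among them normexp (-0.14, adjusted p = 0.283, the highest), the percentile over spots and slide 1, where *Gper1* was the 1 gene lower.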
